A study of Quercus x morisii and Quercus suber and Quercus ilex with 16 samples.

Results

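Among the 47292 loci of the outer bark transcriptome, 4 were followed here because of their place in the making and methylation of wall polysaccharides. They were *GH9A1* (LOC112027607), *UGD* (LOC111990917), *RGP2* (LOC112004750) and *MAT3* (LOC112032159), each found in the table by its locus identifier and named after the closest Arabidopsis protein. All 4 come from a selection of differentially expressed genes that the study made on the same samples, so their differences between barks are described here and are not independent evidence of a direction. Outer bark was compared in 4 groups of 4 libraries: cork of *Quercus suber* (cork oak; trees 87, 89, 90 and 91), cork-like bark of a hybrid backcrossed to cork oak, rhytidome-like bark of F1 hybrids between holm oak and cork oak (trees 21, 14, 18 and 20) and rhytidome of *Quercus ilex* (holm oak; trees 33, 67, 68 and 94). Each library of cork, rhytidome-like bark and rhytidome came from the south side of its own tree, whereas the cork-like libraries 1 to 4 came from 4 sides of 1 tree. The p-values that involve cork-like bark therefore do not cover variation between trees. All barks shared 1 estimate of spread, so the spread between sides of the cork-like tree also enters the p-values of the other comparisons. All trees grew wild in a mixed forest, the cork was virgin cork, and the tissue was scraped from the inner face of the detached outer bark.

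Plant cell walls are built from cellulose, made at the plasma membrane, and from hemicelluloses and pectins, made in the Golgi from nucleotide sugars. In Arabidopsis, GH9A1 (KORRIGAN) is an endoglucanase anchored in the membrane and needed for cellulose synthesis, UGD oxidizes UDP-glucose to UDP-glucuronic acid, the precursor of the acidic and pentose sugars of pectin and xylan, and RGP2 belongs to the mutases that turn UDP-arabinopyranose into UDP-arabinofuranose. MAT3 is a methionine adenosyltransferase, which makes S-adenosylmethionine, the methyl donor for pectins, for the monomers of lignin and for many other molecules. Cork consists of phellem, a tissue of dead cells with suberized walls laid down by the phellogen, while a rhytidome holds successive thin periderms with phloem enclosed between them.

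The 4 loci fell into 2 patterns. *GH9A1* and *MAT3* were higher in cork than in rhytidome, by a log2 fold change (log2FC) of 1.23 and 1.79. At both loci all 8 cork-type libraries (cork and cork-like) lay above all 8 rhytidome-type libraries (rhytidome-like and rhytidome). The gap was 0.275 at *GH9A1* and 0.0074 at *MAT3*. The same held at 7.04% of loci tested and at 14.5% of the 1540 loci averaging at least 12. *RGP2* and *UGD*, with a log2FC of -0.09 and 0.18 between cork and rhytidome, were low in rhytidome-like bark, in which all 4 libraries lay below the other 12, as they did at 7.51% of loci tested and at 10% of the 1540 loci averaging at least 12. Levels are rlog values, a regularized log2 of the counts scaled for depth, so a difference of 1 is a doubling, and levels of different loci are not compared since they are not corrected for length. Differences were tested with limma over the 25617 loci whose rlog averaged at least 1 across libraries, a filter that all 4 loci passed. Loci with an adjusted p below 0.01 and an absolute log2FC above 1 were taken as DEGs.

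**Figure D1:**
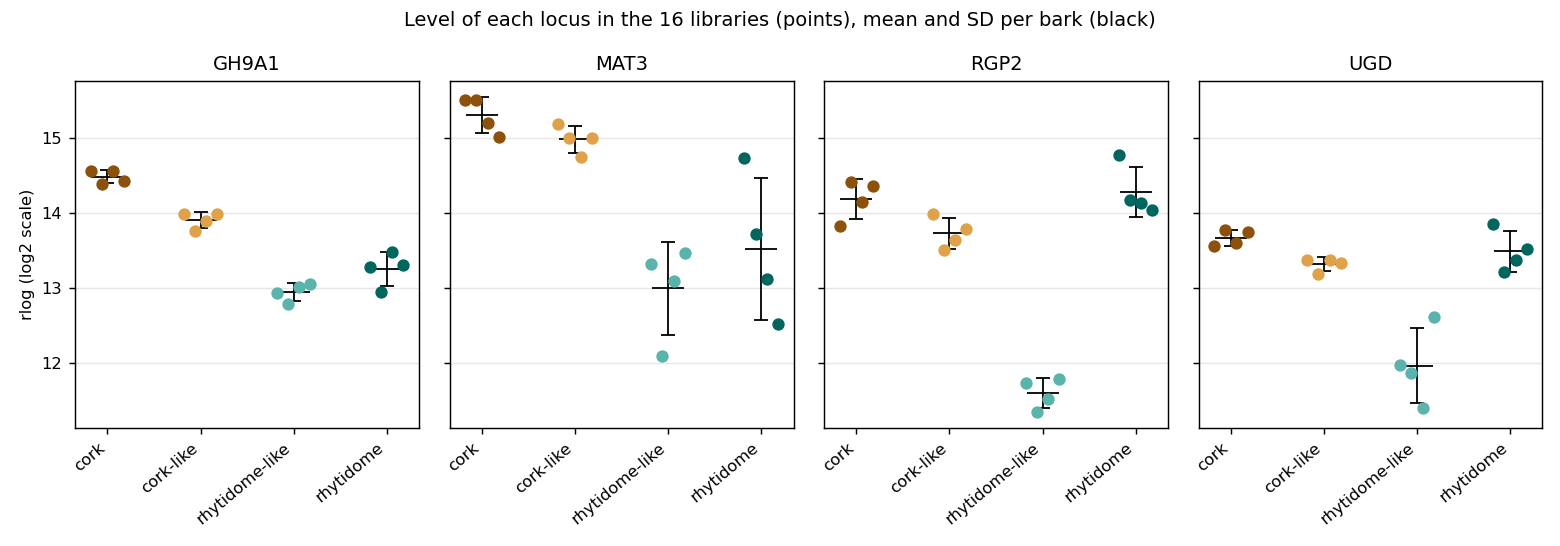
Level (rlog, log2 scale) of *GH9A1*, *MAT3*, *RGP2* and *UGD* in cork, cork-like bark, rhytidome-like bark and rhytidome; points are the 16 libraries and black marks the mean and SD of each bark (n = 4). *GH9A1* and *MAT3* are higher in both cork-type than in both rhytidome-type barks, whereas *RGP2* and *UGD* are low in rhytidome-like bark, with means of 11.59 and 11.96.

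Over the 6 pairwise comparisons of barks, 12 of the 24 tests of the 4 loci gave a DEG. In cork/rhytidome 2 of 4 loci were DEGs, both higher in cork, beside 29.6% of all loci tested and 11.9% that were DEGs higher in cork. In cork/rhytidome-like all 4 were DEGs, all higher in cork, where 31.7% of loci were DEGs and 16.3% were DEGs higher in cork. In cork-like/rhytidome-like 3 of 4 were DEGs higher in cork-like bark, where 27.3% of loci were DEGs and 15.5% in this direction. In cork-like/rhytidome 1 of 4 was a DEG higher in cork-like bark (21.5% of loci in all, 9.63% in this direction), in rhytidome-like/rhytidome 2 of 4 were DEGs lower in rhytidome-like bark (17.7% and 12%) and in cork/cork-like 0 of 4 were DEGs (13.9%). In cork/cork-like, 2 of the loci had an unadjusted p below 0.05 in limma, namely *GH9A1* (0.00015) and *RGP2* (0.02). With only these barks in the fit, the limma adjusted p was 0.00087 at *GH9A1*, 0.036 at *RGP2*, 0.009 at *UGD* and 0.09 at *MAT3*. None was a DEG there, and the cork-like libraries share 1 tree. At the 1540 loci averaging at least 12, DEGs made up 24.1% in cork/rhytidome (17.5% higher in cork) and 41% in cork/rhytidome-like (19.5% higher in cork). In cork-like/rhytidome-like they were 34.2% (14.9% higher in cork-like bark) and in cork-like/rhytidome 16.3% (12.2% higher in cork-like bark). In rhytidome-like/rhytidome they were 24.2% (8.05% lower in rhytidome-like bark) and in cork/cork-like 10.9%. The median log2FC over all loci tested was -0.16 in cork/rhytidome, -0.14 in cork/rhytidome-like, -0.14 in rhytidome-like/rhytidome and 0.05 in cork-like/rhytidome-like, and relative to it *RGP2* had a log2FC of 0.07 in cork/rhytidome and -2.55 in rhytidome-like/rhytidome.

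**Figure D2:**
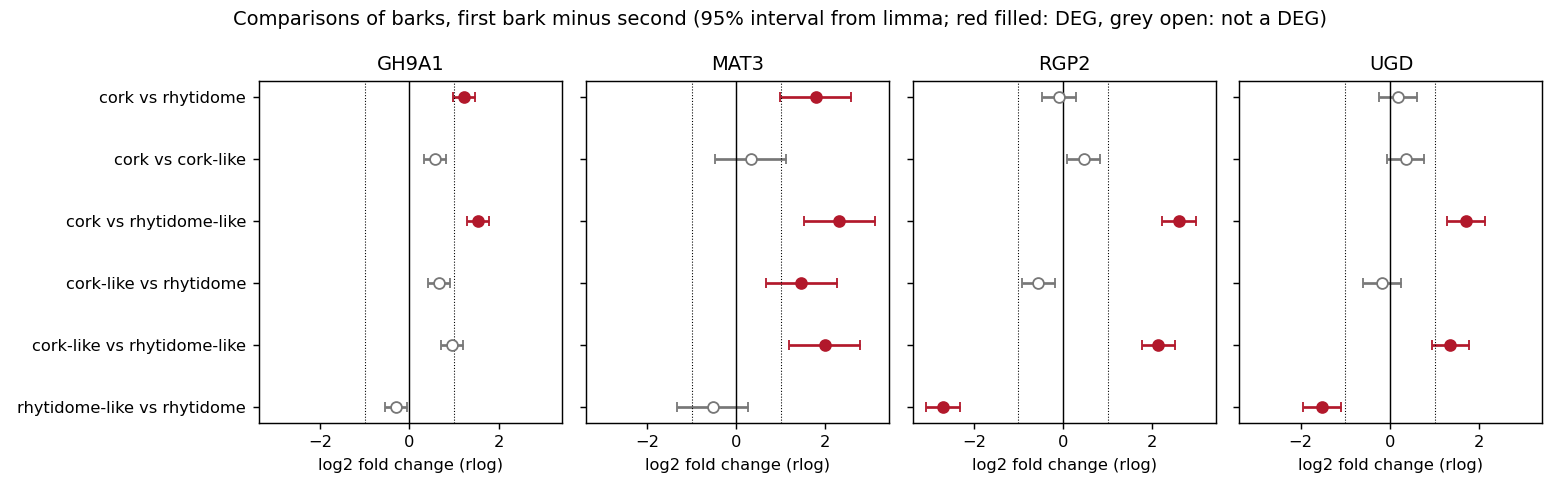
Log2 fold change on the rlog scale, first bark minus second, of each locus in the 6 pairwise comparisons; bars are 95% intervals from limma, dotted lines stand at -1 and 1, and red filled points are DEGs. *RGP2* and *UGD* are DEGs in the 3 comparisons with rhytidome-like bark, with *RGP2* at 2.60, 2.14 and -2.69, and *MAT3* has the widest intervals.

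*GH9A1*, the endoglucanase of cellulose synthesis, had the smallest SD of the 4 loci when pooled within barks. It stood at 14.57, 14.39, 14.56 and 14.43 in cork (trees 87, 89, 90 and 91), at 13.99, 13.75, 13.90 and 13.99 in cork-like libraries 1 to 4, at 12.93, 12.79, 13.01 and 13.05 in rhytidome-like bark (trees 21, 14, 18 and 20) and at 13.28, 12.95, 13.48 and 13.30 in rhytidome (trees 33, 67, 68 and 94). The 4 cork libraries lay above the cork-like ones and these above both rhytidome-type barks, which overlapped each other. All cork libraries lay above all cork-like ones also at *UGD*, as they did at 19.6% of loci tested and at 31.4% of the 1540 loci averaging at least 12. The mean was 14.49 ± 0.09 in cork and 13.91 ± 0.11 in cork-like bark, with 12.95 ± 0.12 in rhytidome-like bark and 13.25 ± 0.22 in rhytidome (SD, n = 4 each). Cork exceeded rhytidome 2.35-fold (log2FC 1.23, SE 0.12, limma adjusted p = 6.5e-07) and rhytidome-like bark 2.91-fold (log2FC 1.54, SE 0.12, limma adjusted p = 3e-08). With only the barks compared in the fit, which leaves the cork-like tree out, the limma adjusted p was 0.00011 and 8.6e-06. In cork/rhytidome *GH9A1* was no longer a DEG with quantile normalization (log2FC 0.85) or when tested for a log2FC above 1 in size (limma treat, adjusted p = 0.15).

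The remaining differences of *GH9A1* were below the threshold for a DEG. Cork was above cork-like bark by a log2FC of 0.58 (95% interval 0.33 to 0.83, limma adjusted p = 0.0015). Cork-like bark was above rhytidome by 0.65 (0.41 to 0.90, limma adjusted p = 0.00038) and above rhytidome-like bark by 0.96 (0.71 to 1.21, limma adjusted p = 6.6e-06). Both log2FC values fell short of 1. The intervals and p-values with cork-like bark treat sides of 1 tree as replicates, so they do not cover variation between trees. The *GH9A1* mean in the cork-like tree lay 53% of the way from rhytidome to cork. Rhytidome-like bark stood at a log2FC of -0.31 against rhytidome, with an interval of -0.55 to -0.06.

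*UGD*, which supplies UDP-glucuronic acid, was low in 1 of the 4 barks. It reached 13.56, 13.78, 13.59 and 13.74 in cork (trees 87, 89, 90 and 91), 13.37, 13.18, 13.38 and 13.34 in cork-like libraries 1 to 4, 11.97, 11.86, 11.40 and 12.62 in rhytidome-like bark (trees 21, 14, 18 and 20) and 13.86, 13.21, 13.37 and 13.52 in rhytidome (trees 33, 67, 68 and 94). Rhytidome overlapped both cork and cork-like bark, cork lay above cork-like bark, and every rhytidome-like library lay below all of them, tree 20 the least. The means were 13.67 ± 0.11 in cork and 13.32 ± 0.09 in cork-like bark, with 11.96 ± 0.50 in rhytidome-like bark and 13.49 ± 0.28 in rhytidome (SD, n = 4 each). *UGD* fell in rhytidome-like bark, 2.89-fold below rhytidome (log2FC -1.53, SE 0.20, limma adjusted p = 3.5e-05), a call lost with each library centred on its median over all loci (-0.98) and when tested for a log2FC above 1 in size (limma treat, adjusted p = 0.11). It was 3.27-fold higher in cork relative to rhytidome-like bark (log2FC 1.71, limma adjusted p = 3e-06) and 2.56-fold higher in cork-like than in rhytidome-like bark (log2FC 1.36, limma adjusted p = 4.4e-05). No difference between cork and rhytidome passed the test (log2FC 0.18, 95% interval -0.24 to 0.60), and its sign turned to -0.23 with quantile normalization. Under the same centring *UGD* was a DEG in cork/rhytidome (log2FC 1.06, limma adjusted p = 0.0012).

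*RGP2*, the arabinose mutase, had the largest change of the 4 loci. Its level was 13.83, 14.42, 14.14 and 14.37 in cork (trees 87, 89, 90 and 91), 13.99, 13.50, 13.64 and 13.79 in cork-like libraries 1 to 4, 11.73, 11.34, 11.52 and 11.78 in rhytidome-like bark (trees 21, 14, 18 and 20) and 14.77, 14.18, 14.14 and 14.04 in rhytidome (trees 33, 67, 68 and 94). The rhytidome-like libraries were far below the rest, with the 12 others spread between 13.50 and 14.77. The means were 14.19 ± 0.27 in cork and 13.73 ± 0.21 in cork-like bark, with 11.59 ± 0.20 in rhytidome-like bark and 14.28 ± 0.33 in rhytidome (SD, n = 4 each). *RGP2* fell 6.44-fold in rhytidome-like bark against rhytidome (log2FC -2.69, SE 0.18, limma adjusted p = 9e-08), and this log2FC was the 991st lowest of the 25617. It was higher by 2.60 in cork (limma adjusted p = 1.1e-08) and by 2.14 in cork-like bark (limma adjusted p = 1.6e-07) than in rhytidome-like bark.

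Between cork and rhytidome, *RGP2* had a log2FC of -0.09 (95% interval -0.47 to 0.29, limma adjusted p = 0.69), and it moved to -0.63 with quantile normalization (limma adjusted p = 0.017), while its sign turned without cork 87 (0.03), without rhytidome 33 (0.07) and with libraries centred on their median (0.79 over all loci, 0.14 over the loci tested). In cork-like bark it lay at -0.55 against rhytidome (-0.93 to -0.17) and cork lay 0.46 above cork-like bark (0.08 to 0.84), neither of which made it a DEG. The 3 comparisons of *RGP2* with rhytidome-like bark gave a DEG under every alternative that was run. Both *RGP2* and *UGD* were DEGs low in rhytidome-like bark against each of the other 3 barks, as were 5.53% of all loci tested and 6.82% of the 1540 loci whose rlog averaged at least 12.

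*MAT3*, which makes S-adenosylmethionine, varied most of the 4 loci among rhytidome-like and among rhytidome trees, but not among cork trees. It stood at 15.51, 15.51, 15.20 and 15.02 in cork (trees 87, 89, 90 and 91), at 15.19, 15.00, 14.74 and 15.00 in cork-like libraries 1 to 4, at 13.33, 12.09, 13.09 and 13.47 in rhytidome-like bark (trees 21, 14, 18 and 20) and at 14.74, 13.71, 13.12 and 12.52 in rhytidome (trees 33, 67, 68 and 94). Rhytidome ran over a wide range whose top, tree 33, came within 0.0074 of the lowest cork-like library. The means were 15.31 ± 0.24 in cork and 14.98 ± 0.18 in cork-like bark, with 12.99 ± 0.62 in rhytidome-like bark and 13.52 ± 0.94 in rhytidome (SD, n = 4 each). *MAT3* was higher in cork than in rhytidome 3.45-fold (log2FC 1.79, 95% interval 0.99 to 2.58, limma adjusted p = 0.001) and than in rhytidome-like bark 4.97-fold (log2FC 2.31, limma adjusted p = 8.4e-05). It was also higher in cork-like bark than in rhytidome-like bark (log2FC 1.99, limma adjusted p = 0.00043) and than in rhytidome (log2FC 1.46, limma adjusted p = 0.0057).

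The last of these calls was lost when any one of 6 libraries was left out (rhytidome 67, 68 or 94, or cork-like 1, 2 or 4), when no filter on low values was used and when the cork-like libraries were averaged to 1. No difference of *MAT3* passed the test between cork and cork-like bark (log2FC 0.33, 95% interval -0.47 to 1.12) or between rhytidome-like bark and rhytidome (log2FC -0.53, -1.32 to 0.27), and these intervals also hold changes of more than 1 in size. Both use the spread pooled over all 4 barks, with an SD of 0.94 in rhytidome but 0.24 in cork and 0.18 in cork-like bark. The *MAT3* log2FC in cork/rhytidome ran from 1.45 without rhytidome 94 to 2.19 without rhytidome 33. It was no longer a DEG there with quantile normalization (1.22, limma adjusted p = 0.022) or when tested for a log2FC above 1 in size (limma treat, adjusted p = 0.13), and that test also ended the call in cork/rhytidome-like (limma treat, adjusted p = 0.011).

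The barks ranked the same way at *GH9A1* and *MAT3*: cork, cork-like bark, rhytidome and rhytidome-like bark, from high to low. At *GH9A1* the libraries of neighbouring barks did not overlap, except those of rhytidome-like bark and rhytidome, though no neighbours differed enough for a DEG, and at *MAT3* only cork-like bark and rhytidome were neighbours with a DEG between them. At *UGD* the order was cork, rhytidome, cork-like bark and rhytidome-like bark, and at *RGP2* rhytidome, cork, cork-like bark and rhytidome-like bark, and at both the one DEG between neighbours was that of cork-like against rhytidome-like bark.

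With the mean of cork and cork-like bark taken against that of rhytidome-like bark and rhytidome, *MAT3* (log2FC 1.89, SE 0.26, limma adjusted p = 2e-05), *GH9A1* (1.10, SE 0.08, limma adjusted p = 2.5e-08) and *RGP2* (1.02, SE 0.13, limma adjusted p = 5.2e-06) were higher in cork-type barks. The *RGP2* mean in rhytidome (14.28) was not below that in cork (14.19) or cork-like bark (13.73). Only its mean in rhytidome-like bark (11.59) was below both. *UGD* had a log2FC of 0.77 (95% interval 0.47 to 1.07) and was not a DEG. Thus 3 of 4 were DEGs, beside 29.1% of loci tested and 14% that were DEGs higher in cork-type barks. Among the 1540 loci averaging at least 12, these shares were 25.1% and 15.1%. The call of *RGP2*, at the edge of the threshold, was lost with quantile normalization (0.78) and without any one of 6 libraries (cork 89 or 91, rhytidome 68 or 94, cork-like 1 or rhytidome-like 14, at 0.98 to 1.00). The pattern in which all cork-type libraries lie above all rhytidome-type ones, seen at *GH9A1* and *MAT3*, held at 7.04% of loci tested and at 14.5% of the 1540 loci averaging at least 12.

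The hybrids were also set against the equally weighted mean of the parents. Rhytidome-like bark was below the parental mean by a log2FC of -2.64 at *RGP2* (limma adjusted p = 5.3e-09), -1.62 at *UGD* (limma adjusted p = 1.9e-06) and -1.42 at *MAT3* (limma adjusted p = 0.0021), and of -0.92 at *GH9A1* (95% interval -1.14 to -0.71), which was not a DEG. Of all loci tested, 23% were DEGs here and 13.7% were DEGs below the parental mean. Among the 1540 loci averaging at least 12, these shares were 32.9% and 13.2%. The *MAT3* call was lost without rhytidome-like 14, the tree with the lowest value (log2FC -1.12, limma adjusted p = 0.012). At all 4 loci the rhytidome-like mean lay below both parents, at a distance of -2.60 from the lower parent at *RGP2*, -1.53 at *UGD*, -0.53 at *MAT3* and -0.31 at *GH9A1*, and the distances at *MAT3* and *GH9A1* are those of the comparison with rhytidome, in which neither was a DEG.

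Cork-like bark gave no DEG among the 4 loci against the parental mean, where 12.2% of loci were DEGs (7.08% of the 1540 loci averaging at least 12). The log2FC was 0.04 at *GH9A1* (95% interval -0.18 to 0.25), -0.51 at *RGP2* (-0.83 to -0.18), -0.26 at *UGD* (-0.63 to 0.10) and 0.57 at *MAT3* (-0.12 to 1.26). Only *RGP2* had an unadjusted p below 0.05 in limma (0.0049). The difference between the parents was also set against that between the 2 hybrid barks. Of the 4 loci 2 passed, *RGP2* and *UGD*, both with a negative value. Of all loci tested, 18.7% passed and 12.3% passed with a negative value. Among the 1540 loci averaging at least 12, these shares were 23.2% and 5.58%.

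**Figure D3:**
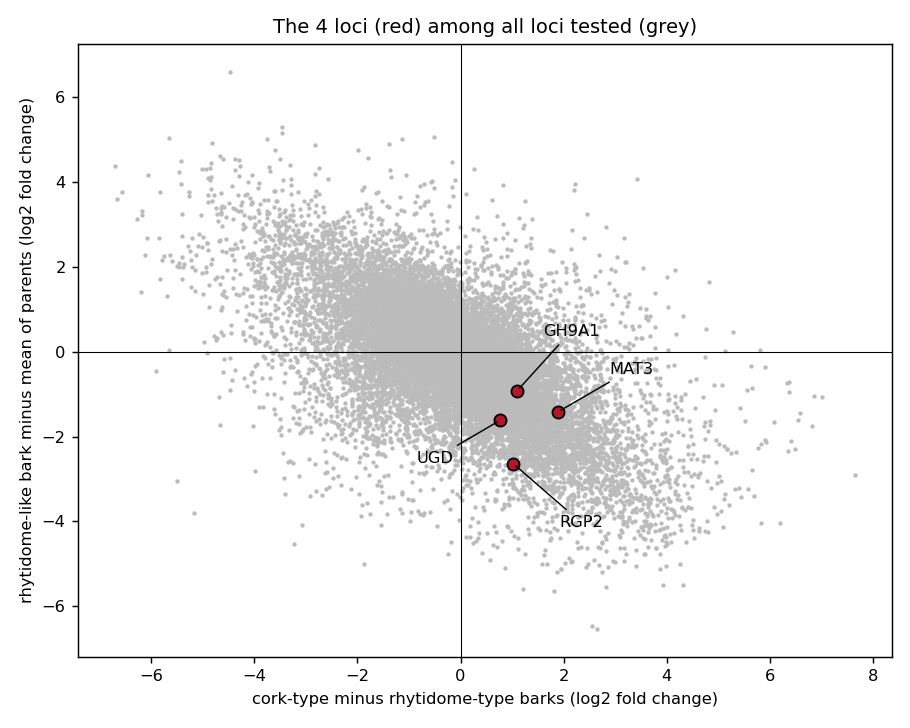
Each grey point is 1 of the 25617 loci tested, placed by its log2 fold change between cork-type and rhytidome-type barks (x axis) and between rhytidome-like bark and the mean of the parents (y axis), with the 4 loci in red. All 4 lie to the right of 0 and below 0, from 0.77 to 1.89 along the x axis and from -0.92 to -2.64 along the y axis. Rhytidome-like bark enters both axes with opposite sign, so a locus low in it is moved right and down by construction.

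To see whether the loci changed unequally, the difference between pairs of loci was taken within each library, which cancels any scaling of the library as a whole. These differences were chosen after the data had been seen, and 18 were tested by exact two-sided permutation, of which 11 gave the smallest p that 4 against 4 allows (0.0286; 0.0468 after Benjamini-Hochberg adjustment over the 18). *GH9A1* minus *RGP2* was 0.30 in cork against -1.03 in rhytidome, a shift of 1.33 with no overlap of the libraries (exact permutation p = 0.0286). *RGP2* minus *MAT3* was -1.12 in cork and 0.76 in rhytidome (exact permutation p = 0.0286), but -1.12 in cork and -1.40 in rhytidome-like bark (exact permutation p = 0.37). *RGP2* minus *UGD* was -0.37 in rhytidome-like bark and 0.79 in rhytidome, so that *RGP2* fell more than *UGD*, with a shift of -1.16 (exact permutation p = 0.0286). *GH9A1* minus *MAT3* did not pass in cork against rhytidome (-0.82 and -0.27, exact permutation p = 0.37). The offset of each difference includes the lengths of the loci, and only its shift between barks is compared.

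Spread within barks set the loci apart as well. The pooled SD within barks was 0.14 at *GH9A1*, 0.26 at *RGP2*, 0.30 at *UGD* and 0.59 at *MAT3*, against a median of 0.25 over the 1540 loci at that level. Of those loci, 8.57% varied less than *GH9A1* and 95.8% varied less than *MAT3*. Rhytidome 33 was the highest rhytidome library at *RGP2*, *UGD* and *MAT3*, by 0.49, 0.37 and 1.21 above the bark mean. Rhytidome-like 20 was the highest rhytidome-like library at all 4 loci, and rhytidome-like 14 the lowest at *GH9A1*, *RGP2* and *MAT3*.

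**Figure D4:**
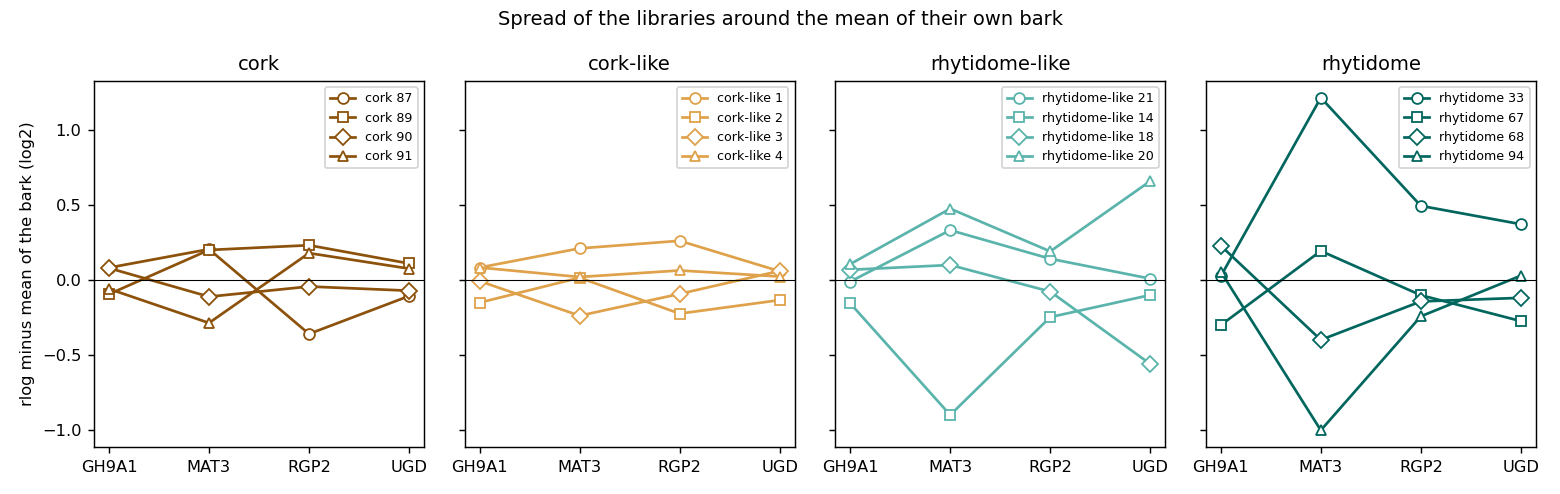
Deviation of each library from the mean of its own bark (log2, y axis) at the 4 loci, with 1 line per library and 1 panel per bark. Lines stay near 0 at *GH9A1* and spread widest at *MAT3* in rhytidome, where tree 33 stands 1.21 above the mean and tree 94 stands 1.00 below it.

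Tissue markers moved with these barks. The 7 phellem markers were loci of suberin synthesis and deposition such as *GPAT5* and *CYP86B1*. All were DEGs higher in cork than in rhytidome (median log2FC 3.30), as were 11.9% of all loci tested. They were also all DEGs lower in rhytidome-like bark than in rhytidome (median -2.94), as were 12% of all loci tested. Their summed level, on the log2 scale, ranged from 18.61 to 19.14 in cork, from 17.61 to 17.98 in cork-like bark, from 11.87 to 13.65 in rhytidome-like bark and from 15.60 to 16.35 in rhytidome. *BAM3*, a receptor kinase of the phloem, ran the other way, from 3.90 to 6.39 in cork, from 6.02 to 9.45 in cork-like bark, from 11.69 to 12.95 in rhytidome-like bark and from 10.90 to 12.20 in rhytidome. None of these markers was at 0 in any bark, and rhytidome-type samples include phloem. All of them come from the study's selection of differentially expressed genes on the same libraries, so their direction is not independent evidence. The part of these tissues in the levels of the 4 loci was not tested. In bulk tissue, fewer cells of a type and less RNA per cell cannot be told apart.

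**Figure D5:**
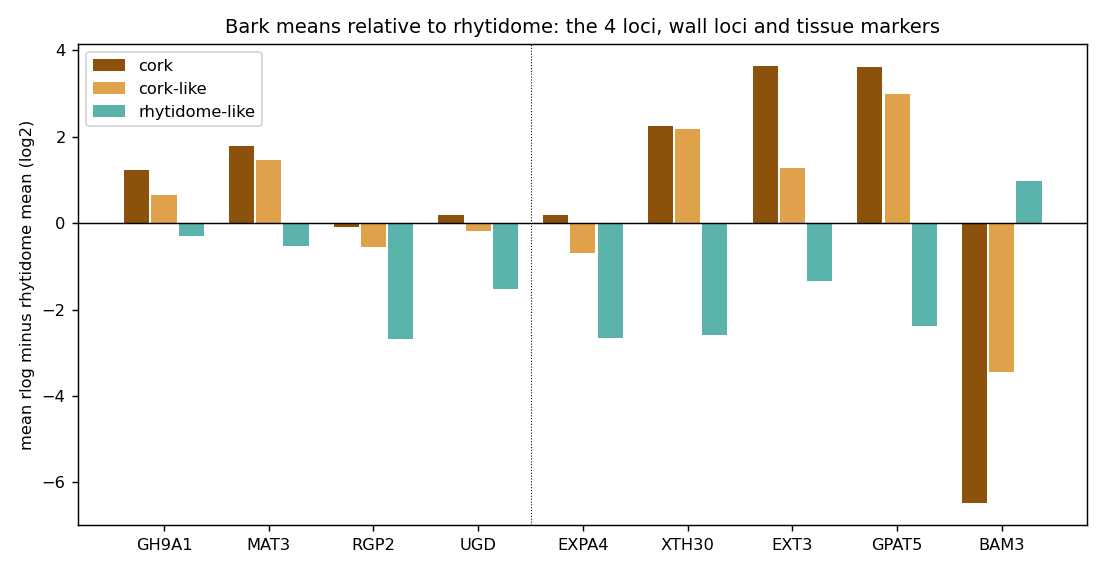
Mean rlog of cork, cork-like and rhytidome-like bark minus the mean of rhytidome (log2, y axis) for the 4 loci (left of the dotted line), the wall loci *EXPA4*, *XTH30* and *EXT3*, the phellem marker *GPAT5* and the phloem marker *BAM3*. *RGP2*, *UGD* and *EXPA4* are near 0 in cork and low in rhytidome-like bark, whereas *BAM3* stands at -6.48 in cork.

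Few other wall genes carry a name in these data. Beside the 4 loci, 15 loci had a name that belongs to wall polysaccharides or wall proteins, and 13 passed the filter. Of these 13, 6 DEGs rose and 1 fell in cork-type barks (median log2FC 0.70, against -0.10 over all loci, of which 14% rose and 15% fell). Between the parents alone the balance was the other way, with 4 DEGs higher and 6 lower in cork relative to rhytidome (median -0.46, against -0.16 over all loci, of which 11.9% were higher and 17.7% lower). The lower ones included loci that share the name plant invertase/pectin methylesterase inhibitor superfamily. Their means were low, at 3.19, 2.96, 0.39 and 1.07 in cork and 5.87, 6.03, 2.09 and 3.51 in rhytidome. Of the same 13, 1 DEG rose and 9 fell in rhytidome-like bark relative to its parents (median -2.12, against -0.02 over all loci, of which 9.3% rose and 13.7% fell). The largest changes between cork-type and rhytidome-type barks without overlap were those of LOC112023845, a Pollen Ole e 1 allergen and extensin family protein that fell by 4.09, of *XTH30*, a xyloglucan endotransglucosylase/hydrolase that rose by 3.52, and of *EXT3*, an extensin that rose by 3.12 on the log2 scale. Among methyltransferases, which use the product of MAT3, 11 loci were named and 6 tested. Of these 6, 2 were DEGs lower in cork-type barks, where 15% of all loci tested fell, and the other 4 were not DEGs. Both that fell are annotated as protein arginine methyltransferase 10, of which LOC112002648 fell by 2.08 without overlap. The names on both lists were matched after the table of names was known, and the lists are described by counts only. Some of these loci, *EXPA4*, *XTH30* and *EXT3* among them, were selected by the study as DEGs on these libraries. The counts beside all loci are therefore not independent evidence of a direction.

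The loci most like each member were sought by Pearson's r over the 16 libraries among 397 other named loci averaging at least 5 in rlog. *RGP2* and *UGD* had the same 5 loci at the top: *EXPA4*, an expansin (r = 0.97 with *RGP2* and 0.93 with *UGD*), *MYB102*, *MYB9*, *MYB84* and LOC112007791, a protein of unknown function. *MYB84* is the study's alias for LOC112031843, whose annotated name is myb domain protein 63. *EXPA4* averaged 13.65 in cork and 12.76 in cork-like bark, with 10.81 in rhytidome-like bark and 13.46 in rhytidome. The 5 nearest to *GH9A1* were *PLDα1*, a phospholipase D (r = 0.96), LOC112001573, a leucine-rich repeat protein, the GDSL lipases *GELP51* and *GELP38*, and LOC112002935, chromatin remodeling 31. *MAT3* was nearest to LOC111983024, syntaxin of plants 32 (r = 0.94), followed by a 2-oxoglutarate oxygenase, ovate family protein 12, *AIL6* and a ferredoxin-related locus. Between the members themselves r was 0.95 for *RGP2* and *UGD*, 0.85 for *GH9A1* and *MAT3*, and from 0.62 to 0.69 for the other pairs. Among all 17753 loci averaging at least 5, named or not, 65 were closer to *GH9A1* than its nearest named locus, 4 to *RGP2*, 33 to *UGD* and 2 to *MAT3*, and 701 had an r above 0.9 with *GH9A1*. These values describe 16 libraries that share barks and, in cork-like bark, a tree, and many of the named loci were selected by the study as DEGs on these libraries.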

How the data were processed

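Outer bark RNA of 13 trees was sequenced as 16 libraries with paired reads of 100 bases. Per the study's methods and the submitters' notes, the authors trimmed reads with Trimmomatic 0.40, mapped those of every bark, holm oak and hybrids included, with GSNAP to the genome CorkOak1.0 of cork oak, kept unique concordant pairs, collapsed isoforms and counted with HTSeq 0.11.1 (Cufflinks 2.2.1 and DESeq2 1.38.3 are also named). How this mapping affects holm oak and hybrid values was not tested, and the sources used here do not give the strand setting. The authors deposited rlog (regularized log2) values, from -2.29 to 20.05 over 47292 loci. These cannot be turned back into counts, so no counting error is given. The study states a minimum of reads obtained for each library, which was not used here. The rlog transformation draws differences of low loci toward 0.

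All 16 libraries entered 1 fit of limma 3.58.1 (R 4.3.3) with bark means and a variance trend, on the 25617 loci whose rlog averaged at least 1, with Benjamini-Hochberg adjustment within each comparison and the study's DEG thresholds. The fit was tested on simulated data. Exact permutation tests, correlations and figures used Python 3.11.15 with scipy 1.17.1, numpy 2.4.6, pandas 2.3.3 and matplotlib 3.10.9. Groups follow the sample titles. Replicates are separate trees, except in cork-like bark. The pooled spread of the fit includes the 4 sides of the cork-like tree.

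The members and lists were chosen with earlier results of these data known. Named loci are the 4 members, up to 3 loci of a list by largest log2FC between cork-type and rhytidome-type barks without overlap, and the 5 named loci most correlated with each member. *EXPA4*, *GPAT5*, *CYP86B1* and *BAM3* were named as likeness or marker loci. Names come only from the study's annotation (918 loci), in which none of the 14 pathway and family lists prepared at the start had 3 loci. These lists were left out, as were marker lists with no named locus, and both lists by name replaced them. Alternatives tested for a log2FC above 1 (treat), changed the filter, the variance model, the samples in the fit and the scaling, averaged the cork-like libraries and left out each library in turn. No sequence or genome position was used here.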

Additional observations from a re-analysis of the deposited data

Results flagged for a closer look

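The difference between the parents (cork minus rhytidome) was set against that between the hybrids (cork-like minus rhytidome-like bark) in 1 test, and it differed at 2 of the 4 loci. At *RGP2* the parents differed by a log2FC of -0.09 and the hybrids by 2.14, a difference of -2.23 (SE 0.25, limma adjusted p = 1.7e-05). At *UGD* the parents differed by 0.18 and the hybrids by 1.36, a difference of -1.18 (SE 0.28, limma adjusted p = 0.0048). Of all loci tested, 18.7% were called in this test and 12.3% were called with a negative value. Among the 1540 loci averaging at least 12 in rlog, these shares were 23.2% and 5.58%. *GH9A1* (0.27, 95% interval -0.07 to 0.62) and *MAT3* (-0.20, -1.33 to 0.92) did not pass. The hybrids' side rests on 1 cork-like tree. The *RGP2* call was kept under every alternative that was run. The *UGD* call was not: it was lost without any one of 7 libraries (cork 87 or 90, rhytidome 33, cork-like 1 or 4, rhytidome-like 14 or 18, at -0.99 to -1.17), with treat (a test for a log2FC above 1 in size), with no filter, with the cork-like libraries averaged (limma adjusted p = 0.085) and with libraries centred on their median, where it was -0.05 over all loci and -0.68 over the loci tested. Both loci were already known to be low in rhytidome-like bark when this test was set up. Among 16 checks for a single library apart from the other 3 of its bark, of which chance marks about 1 in 20, none stood out.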

How the results depend on the processing

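Of the 4 loci, the number of DEGs changed as follows. Testing for a log2FC above 1 in size (treat) gave 3 in cork/rhytidome-like (without *MAT3*), 0 in cork/rhytidome, cork-like/rhytidome and cork-type/rhytidome-type, and 1, *RGP2*, in rhytidome-like/rhytidome, cork-like/rhytidome-like, rhytidome-like bark against its parents and the difference between parents and hybrids. Quantile normalization, over all loci or over the loci tested, gave 0 in cork/rhytidome and cork-like/rhytidome and 1 in cork-type/rhytidome-type, and 4, with *GH9A1* added, in cork-like/rhytidome-like and for rhytidome-like bark against its parents. Centring each library on its median over all loci gave 2 in cork/cork-like (*GH9A1* and *RGP2*), 1 in rhytidome-like/rhytidome and, with *UGD* added, 3 in cork/rhytidome and 4 in cork-type/rhytidome-type. In the difference between parents and hybrids it made *GH9A1* a DEG (1.40) in place of *UGD*. The library medians over all loci differed by -0.88 in cork/rhytidome and those over the loci tested by -0.23. Scalings over the loci tested were added after the planned ones had been seen. Quantile normalization then gave the same numbers of DEGs. Centring over the loci tested changed fewer calls than over all loci, and gave 1 for the difference between parents and hybrids. In cork-like/rhytidome, no filter, a fit of only the barks compared and averaging the cork-like libraries each gave 0. Averaging gave 1 in cork-like/rhytidome-like, and it and no filter gave 1 for the difference between parents and hybrids. Leaving out single libraries gave 0 to 1 DEGs in cork-like/rhytidome, 3 to 4 in cork-like/rhytidome-like, 2 to 3 in cork-type/rhytidome-type and for rhytidome-like bark against its parents, 1 to 2 for the difference between parents and hybrids, and no change elsewhere. Signs turned only at values that were not DEGs: *UGD* in cork/rhytidome (-0.23 by quantiles) and cork-like/rhytidome (0.13 centred over all loci), *RGP2* in cork/rhytidome (0.79 and 0.14 centred, and -0.17 to 0.073 when single libraries were left out, above 0 without cork 87 or rhytidome 33), *GH9A1* in rhytidome-like/rhytidome (0.24 and 0.068 centred), against the parents in cork-like bark (-0.10 centred, and -0.013 to 0.088 when single libraries were left out, below 0 without rhytidome 67) and in the difference between parents and hybrids (-0.29 by quantiles), and *MAT3* in rhytidome-like/rhytidome (0.019 centred over all loci) and in the difference between parents and hybrids (0.92 and 0.30 centred, and -0.54 to 0.20 when single libraries were left out, above 0 without rhytidome 33 or rhytidome-like 14). Except for the scalings by construction and the loss of samples, the cause was not tested. No paired analysis was possible because the groups share no replicate numbers. Without counts, no limit from depth was computed here.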
